A study of Saccharomyces cerevisiae with 4 samples.

Results

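The subject is a set of 8 minor hexose transporter genes of budding yeast, HXT8, HXT9, HXT10, HXT11, HXT13, HXT15, HXT16 and HXT17, among 6002 nuclear protein-coding genes with a known strand. They were chosen by name with earlier results of these libraries known, and each was read in a window of 1 kb upstream of its start codon (assembly R64, the assembly behind the sacCer3 build). The presence and fold of upstream peaks thus count among the values that the genes were selected on, so these values are given as a description, and no test was run on them. ATAC-seq, in which the transposase Tn5 inserts adapters into open DNA, had been carried out on strain BY4741 lacking SWC4 (swc4Δ, 2 libraries) and on wild-type BY4741 (WT, 2 libraries), all in mid-logarithmic growth at 30 °C. Swc4 is a subunit of the SWR1 remodeller, which installs the histone variant Htz1, and of the NuA4 histone acetyltransferase. Separate cultures are not stated in the labels, so differences between replicates may be technical.

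HXT proteins carry hexoses across the plasma membrane by facilitated diffusion. In laboratory strains most glucose uptake goes through members of the group Hxt1 to Hxt7. Many of their genes, though not all, answer to external glucose through the sensors Snf3 and Rgt2 and the repressor Rgt1. The genes described here are weakly expressed on glucose. Hxt9 and Hxt11 are under the drug-resistance regulators Pdr1 and Pdr3. Hxt13, Hxt15, Hxt16 and Hxt17 have been shown to carry the polyols mannitol and sorbitol. Most of these genes lie in the gene families near chromosome ends, beside genes of isomaltases (IMA), mannitol dehydrogenases (DSF1, MAN2), sorbitol dehydrogenases (SOR1, SOR2) or maltose permeases (MPH2, MPH3), and family members share much of their sequence.

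The 4 peak lists held 2826 and 2368 peaks in swc4Δ and 2354 and 2115 in WT. Each peak carries a fold, the authors' ratio, read here as pileup plus 1 over background plus 1. The pileup is the number of overlapping sequenced pieces, called fragments here, since the unit counted is not stated. The background was 24.4 and 25.5 in swc4Δ and 22.6 and 24.0 in WT. The lowest listed folds were 1.54 and 1.55 in swc4Δ and 1.61 and 1.56 in WT, and the shortest listed peak in every library was 200 bp. A window without a peak may therefore hold a lower or narrower opening. The authors also gave 1 region list per genotype, with 2602 regions for swc4Δ and 1002 for WT. SWC4 itself held 0 peaks over the gene or 1 kb upstream in all 6 lists, which leaves no check of the deletion.

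The name "subtelomeric" fitted 7 of the 8 genes. Their start codons lay 11.6 kb (HXT17), 13.3 kb (HXT16), 13.4 kb (HXT15), 19.5 kb (HXT9), 23.2 kb (HXT13), 25.3 kb (HXT11) and 26.9 kb (HXT8) from the nearer chromosome end. HXT10 went against the name. It lay 112 kb from the left end of chromosome VI, between YFL012W and AUA1, so the set is called the minor HXT genes here. Ends on the right arms were set at the highest coordinate in the gene table or lists, which makes the distances of HXT16 and HXT17 lower limits.

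Upstream peaks at the minor HXT genes were seen in swc4Δ libraries and in neither WT library. In swc4Δ, 3 genes (HXT8, HXT13 and HXT17) had a peak in replicate 1 and 2 (HXT8 and HXT13) in replicate 2, or 2.5 ± 0.707 genes (SD, n = 2), against 0 and 0 genes in WT. HXT8 and HXT13 were gained, meaning that each swc4Δ library listed a peak and no WT library did. Over all 6002 genes the share gained was 5.21%, and over the 379 genes within 30 kb of a chromosome end it was 7.92%. No minor HXT gene was lost (the opposite pattern), against 1.20% of all genes. The other 5 genes, HXT9, HXT10, HXT11, HXT15 and HXT16, had no upstream peak in any library, which was the case for 32.6% of all genes and 58.0% of those within 30 kb of an end. Since the genes were listed with these values known, nothing is read from the difference between 2 of 8 and these shares.

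**Figure D1:**
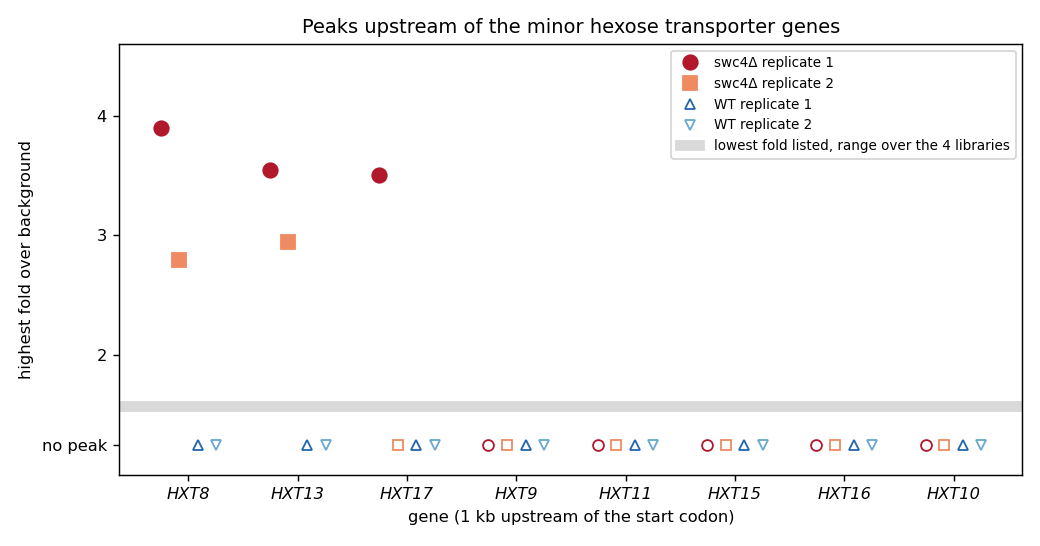
Highest fold over background (y axis, the authors' ratio) of a peak in the 1 kb upstream of each of the 8 genes (x axis), 1 symbol per library; open symbols at the bottom stand for no listed peak, and the grey band spans the lowest folds listed, 1.54 to 1.61. Filled symbols occur at HXT8, HXT13 and HXT17 only, and all 5 are swc4Δ libraries.

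HXT8 (YJL214W, chromosome X, 26887 to 28596, plus strand), a hexose transporter of low expression, shares a divergent gap of 800 bp with IMA5, an isomaltase gene. Its peak had a fold of 3.90 in swc4Δ replicate 1 and 2.79 in swc4Δ replicate 2 (3.35 ± 0.784, SD, n = 2), and no peak was listed in either WT library. The peak thus stood in both swc4Δ libraries, at unequal height. It spanned 26308 to 26690 in swc4Δ replicate 1 and 26353 to 26641 in swc4Δ replicate 2. The summits lay 439 and 355 bp upstream of HXT8, which is 362 and 446 bp upstream of IMA5, near the middle of the gap. The peak cannot be assigned to either gene. The authors' −log10 q for it was 27.3 in swc4Δ replicate 1 and 12.6 in swc4Δ replicate 2.

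The pileup at the HXT8 summit was 98 fragments in swc4Δ replicate 1 (95% exact Poisson interval 79.6 to 119) and 73 in swc4Δ replicate 2 (57.2 to 91.8), while the lowest pileup of any listed WT peak was 37 and 38. These intervals cover counting error only. The WT pileup at this place is not known, and 37 and 38 do not bound it, since a narrow opening may also go unlisted. Within each swc4Δ list the HXT8 peak ranked 633 of 2826 and 762 of 2368 by fold, so it was above the middle of the list and far from the top. Among the 313 gained genes it ranked 20 and 16, where the median folds were 2.60 and 2.19. Chromosome X had 156 and 121 peaks in swc4Δ and 156 and 152 in WT, and 1.92% of its genes were gained and 1.92% lost. Peaks on X were no more numerous in swc4Δ, and their median fold was 2.64 and 2.34 in swc4Δ and 2.46 and 2.20 in WT. The part of these chromosome-wide values in the HXT8 peak was not tested.

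HXT13 (YEL069C, chromosome V, 21537 to 23231, minus strand), a polyol transporter gene, has 2414 bp of sequence without annotated genes upstream, up to YEL068C. Its peak had a fold of 3.55 in swc4Δ replicate 1 and 2.94 in swc4Δ replicate 2 (3.25 ± 0.426, SD, n = 2), with no peak in either WT library. The summits lay 435 and 429 bp upstream of the start codon, 6 bp apart, inside peaks of 347 and 407 bp (23491 to 23837 and 23466 to 23872). The authors' −log10 q was 22.1 in swc4Δ replicate 1 and 14.4 in swc4Δ replicate 2. Pileups were 89 (95% exact Poisson interval 71.5 to 110) and 77 (60.8 to 96.2) fragments, and no other gene's 1 kb window shared the peak.

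By fold the HXT13 peak ranked 805 of 2826 in swc4Δ replicate 1 and 670 of 2368 in swc4Δ replicate 2, and 31 and 11 among the 313 gained genes. Chromosome V held 137 and 175 peaks in swc4Δ and 136 and 130 in WT, so peaks of all kinds were more frequent there in swc4Δ replicate 2, and its part in the HXT13 peak of that library was not tested. Of the 288 genes on V, 3.82% were gained. Divided by the median fold of the peaks on its own chromosome in the same library, the HXT13 peak stood at 1.23 and 1.22, and the HXT8 peak at 1.48 and 1.19.

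HXT17 (YNR072W, chromosome XIV, 772657 to 774351, plus strand), another polyol transporter gene, had a peak in swc4Δ replicate 1 with a fold of 3.51, and none in swc4Δ replicate 2 or in either WT library. The 2 swc4Δ libraries thus disagreed, and HXT17 did not count as gained. The pileup was 88 fragments (95% exact Poisson interval 70.6 to 108), close to that of HXT13 in the same library, and the authors' −log10 q was 21.5. A peak in swc4Δ replicate 1 alone was seen at 6.16% of all genes, and on XIV the libraries held 161 and 109 peaks in swc4Δ and 162 and 152 in WT. The swc4Δ list that lacked the HXT17 peak was also the shortest on this chromosome, and the part of this in the missing peak was not tested. The same peak (771972 to 772315) reached the window of the divergent gene YNR071C, whose start codon lies 671 bp from the summit.

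HXT13 and HXT17 stand in the same arrangement, each followed tail to tail by a mannitol dehydrogenase gene. Both transporter genes are 1695 bp long, DSF1 and MAN2 are both 1509 bp long, and the gap between them is 439 bp on V and 440 bp on XIV. In swc4Δ replicate 1 the upstream peaks lay 260 to 606 bp from HXT13 and 342 to 685 bp from HXT17, with summits at 435 and 518 bp. The upstream neighbours are not alike, YEL068C on the same strand across 2414 bp and the divergent YNR071C across 1188 bp. Sequences were not compared. Whether reads with several matches in the genome had a part in the peaks at both places was not tested. On the far side of the dehydrogenase the places on V and XIV differed. The 4 libraries each listed a peak upstream of DSF1, at folds of 4.26 and 3.32 in swc4Δ and 2.46 and 2.52 in WT. Upstream of MAN2 a peak was listed in swc4Δ replicate 1 alone (fold 2.99). The coding stretch from HXT13 to DSF1 (3643 bp) and from HXT17 to MAN2 (3644 bp) held 0 peaks in each of the 4 libraries.

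**Figure D2:**
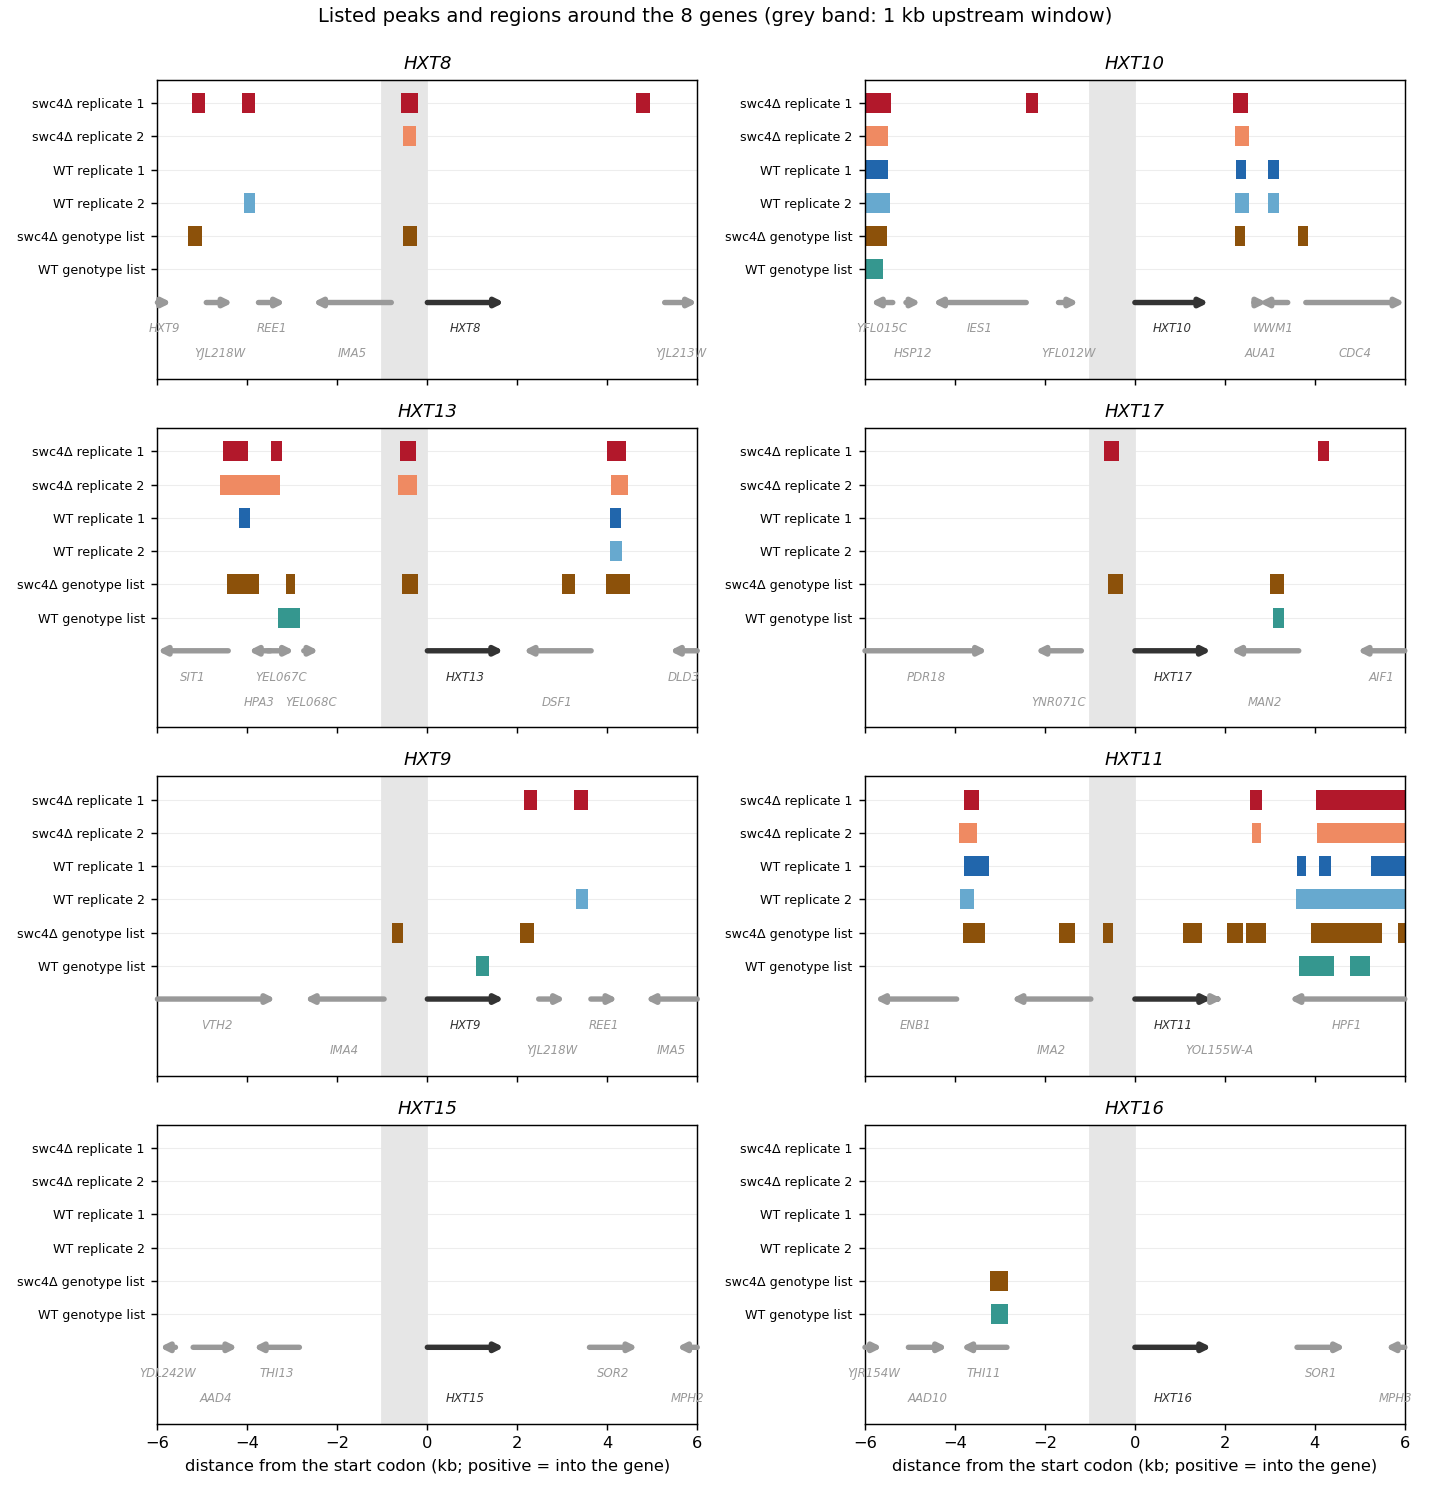
Peaks of the 4 libraries and regions of the 2 genotype lists (coloured bars, 1 row each) within 6 kb of the start codon of each gene, with x axes in kb, drawn so that every transporter gene points right; arrows are annotated genes and the grey band is the 1 kb upstream window. Bars fall in the grey band at HXT8, HXT13 and HXT17 in swc4Δ libraries, at HXT9 and HXT11 in the swc4Δ genotype list only, and nowhere around HXT15.

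HXT9 (YJL219W, chromosome X, 19497 to 21200, plus strand) and HXT11 (YOL156W, chromosome XV, 25273 to 26976, plus strand), the pair under Pdr1 and Pdr3, had no upstream peak in either swc4Δ library or either WT library. The authors' swc4Δ genotype list, however, held a region upstream of each, and their WT list held none. The swc4Δ region at HXT9 (18711 to 18960) had a score of 96 and lay 537 to 786 bp upstream. That at HXT11 (24561 to 24790) had a score of 143 and lay 483 to 712 bp upstream. Both scores were low for that list, whose median was 244.5, with 2446 and 2262 as their ranks among 2602 regions. A region in the swc4Δ genotype list without a peak in either swc4Δ library occurred at 5.46% of all genes and at 13.5% of genes within 30 kb of an end.

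These genes too stand in the same arrangement, since each is 1704 bp long and faces a divergent isomaltase gene of 1770 bp, IMA4 across 960 bp and IMA2 across 978 bp. The pseudogene HXT12 on chromosome IX has such a neighbour too, IMA3, also 1770 bp long. No library had a peak over the stretch from IMA4 to HXT9 (4434 bp), from IMA2 to HXT11 (4452 bp) or from IMA3 to HXT12 (4437 bp). The peaks nearest to the HXT9 start codon lay downstream, beyond the gene, at 2.15 and 6.86 kb in swc4Δ and at 16.8 and 3.31 kb in WT. On the left arm of X the first 21.6 kb, which holds HXT9, had no listed peak in any library. At HXT11 the nearest peaks lay 2.55 and 2.59 kb downstream of the start codon, past the end of the gene, in swc4Δ (folds 3.07 and 2.19), and 3.25 and 3.57 kb upstream, beyond IMA2, in WT.

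HXT15 (YDL245C, chromosome IV, 11657 to 13360, minus strand) and HXT16 (YJR158W, chromosome X, 732440 to 734143, plus strand), both polyol transporter genes, had no upstream peak in any library and no upstream region in either genotype list. Around HXT15 the nearest peak was 6.65 and 6.87 kb away in swc4Δ and 13.0 and 13.0 kb away in WT, and around HXT16 it was 12.7 and 12.7 kb in swc4Δ and 12.7 and 12.8 kb in WT. For HXT16 that nearest peak lay at the end of the chromosome. The stretch without a peak in any library was 19.3 kb long at HXT15 and 28.8 kb long at HXT16. Of the 6002 genes, 147 lay farther from a peak than HXT15 and 14 lay farther than HXT16, while the median distance was 135 bp over all genes and 1102 bp over those within 30 kb of an end.

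The surroundings of HXT15 and HXT16 match over a long block. Both genes are 1704 bp long, with 1900 bp to the sorbitol dehydrogenase gene on 1 side (SOR2, SOR1) and 2843 bp to a thiamine pathway gene on the other (THI13, THI11). From the maltose permease gene to the thiamine gene the block spans 11242 bp on IV (5985 to 17226) and 11243 bp on X (728574 to 739816). Each block held 0 peaks in all 4 libraries. In the genotype lists the block on X held 1 weak region per genotype, at THI11, with scores of 33 (swc4Δ) and 35 (WT), where the lowest score of both lists is 30. Chromosome IV, where HXT15 lies, had 405 and 459 peaks in swc4Δ and 293 and 240 in WT, and 11.7% of its genes were gained. HXT15 showed no such gain. The treatment of reads with several matches in the genome is not given in the sources used here. Its part in the missing peaks of these blocks, which were matched by gene lengths and gaps only, was not tested.

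**Figure D3:**
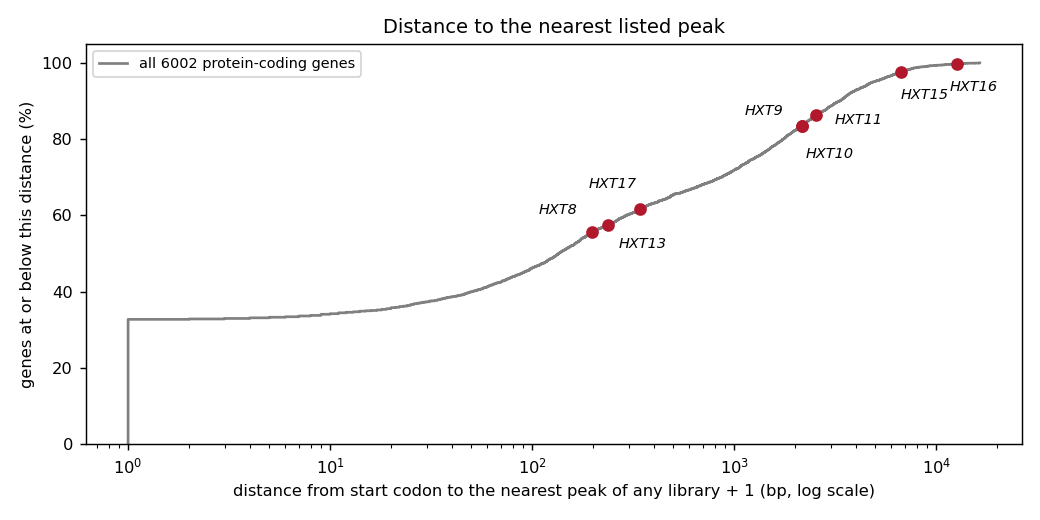
Distance from the start codon to the nearest peak of any of the 4 libraries (x axis, bp plus 1, log scale) against the cumulative share of the 6002 protein-coding genes (y axis, %), with the 8 minor HXT genes as red points. HXT8, HXT13 and HXT17 lie between 197 and 342 bp, HXT9, HXT10 and HXT11 between 2152 and 2551 bp, and HXT15 and HXT16 at 6653 and 12661 bp.

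HXT10 (YFL011W, chromosome VI, 112345 to 113985, plus strand), which lies away from the ends, had no upstream peak in any library and no upstream region in either genotype list. Its nearest listed peak in swc4Δ replicate 1 was 2.16 kb upstream, beyond YFL012W (fold 3.15). In swc4Δ replicate 2 the nearest was 2.22 kb from the start codon, downstream of the gene near AUA1. Every library listed the downstream peak, at folds of 2.68 and 2.49 in swc4Δ and 1.86 and 2.64 in WT. The WT value in replicate 2 lay inside the swc4Δ range. Chromosome VI, with 51 and 33 peaks in swc4Δ and 56 and 44 in WT, gave overlapping numbers of peaks in the 2 genotypes.

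The authors' genotype lists, which have no replicates, covered the upstream windows of 5 of the 8 genes for swc4Δ (HXT8, HXT9, HXT11, HXT13 and HXT17) and of 0 for WT. The swc4Δ list covered 58.4% of all genes and the WT list 25.7%. A region in the swc4Δ list only was found at 33.4% of all genes and at 36.4% of those within 30 kb of an end, so such regions were frequent. Scores were 330 at HXT8, 332 at HXT13 and 296 at HXT17, above the list's median. At HXT17 the region (772051 to 772400) stood 257 to 606 bp upstream, against 210 to 559 bp at HXT13 (23441 to 23790).

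The rest of the pathway gave other counts. In the list of 10 main hexose transporter and sensor genes (HXT1 to HXT7, GAL2, SNF3 and RGT2), 10 and 10 had an upstream peak in swc4Δ and 9 and 9 in WT, and 9 had a peak in all 4 libraries, against 0 of the 8 minor HXT genes and 35.6% of all genes. The exception, SNF3, was gained, with folds of 2.17 and 2.08 in swc4Δ, but neither genotype list held a region there. It lies on chromosome IV, where 11.7% of genes were gained. Shares with a peak over all genes were 60.0% and 49.4% in swc4Δ and 50.9% and 43.8% in WT. Position differs between the 2 sets. Each of the 10 main genes lies 112 kb or more from an end, and 7 of the 8 minor HXT genes lie within 30 kb. Of the 379 genes within 30 kb of an end, 14.8% had a peak in all 4 libraries. The minor HXT genes were chosen with these values known, so nothing is read from the difference between the sets. HXT14, a further minor transporter gene 40.3 kb from an end, had no upstream peak in any library, and neither had the pseudogene HXT12.

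Among 18 regulators of hexose transporter genes, 15 and 14 had an upstream peak in swc4Δ and 15 and 15 in WT. The shares over all genes were 60.0% and 49.4% in swc4Δ and 50.9% and 43.8% in WT. Of all genes, 5.21% were gained and 1.20% lost, and nothing is read from the 2 such regulators below. RGT1, the repressor of HXT genes, was gained (folds 2.29 and 1.89 in swc4Δ), on chromosome XI where 29.6% of genes were, and had a region in the swc4Δ genotype list and none in the WT list. HAP2, of the respiratory activator Hap2/3/4/5, was lost by the library lists (folds 2.25 and 2.16 in WT). Both genotype lists, swc4Δ included, held a region upstream of HAP2, which goes against that call. The drug-resistance regulators PDR1 and PDR3 had a peak in all 4 libraries. For PDR1 the folds were 3.35 and 2.45 in swc4Δ and 2.41 and 2.48 in WT. For PDR3 they were 2.92 and 2.57 in swc4Δ and 3.05 and 2.40 in WT, so the genotypes overlapped at both genes.

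Among 11 isomaltase, dehydrogenase and maltose permease genes of the same chromosome-end families, an upstream peak was listed for 4 and 3 in swc4Δ and for 1 and 2 in WT, and 7 had none in any library. Over all genes within 30 kb of an end the shares with a peak were 38.5% and 30.3% in swc4Δ and 23.5% and 18.5% in WT, and 58.0% had none, and nothing particular to the list is read from its counts. IMA5 was the only gained gene among them, through the peak it shares with HXT8. IMA1 had a peak in both swc4Δ libraries (folds 3.82 and 2.76) and in WT replicate 2 (2.20), but none in WT replicate 1.

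**Figure D4:**
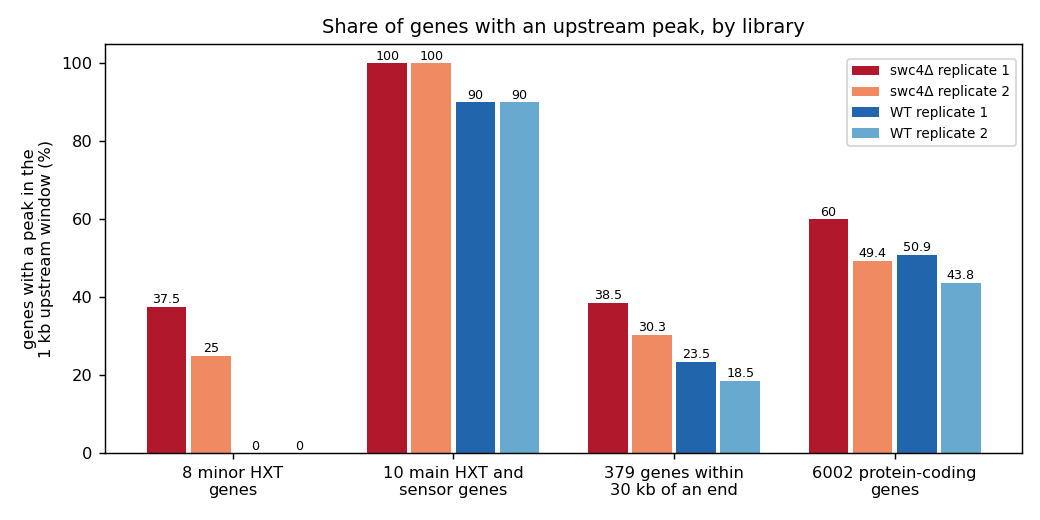
Share of genes with a peak in the 1 kb upstream window (y axis, %) in each of the 4 libraries, for the 8 minor HXT genes, the 10 main transporter and sensor genes, the 379 genes within 30 kb of a chromosome end and all 6002 protein-coding genes. The minor HXT genes stand at 37.5% and 25.0% in swc4Δ and at 0% in both WT libraries, while genes near the ends stand at 38.5% and 30.3% in swc4Δ and 23.5% and 18.5% in WT.

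Position near an end went with fewer peaks in general. Within 30 kb of an end, 38.5% and 30.3% of genes had an upstream peak in swc4Δ and 23.5% and 18.5% in WT, against 60.0% and 49.4% in swc4Δ and 50.9% and 43.8% in WT over all genes. The 7 minor HXT genes within this distance, all but HXT10, had 3 and 2 upstream peaks in swc4Δ and 0 and 0 in WT, and nothing is read from these counts, on which the genes were chosen.

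The genes most like each open HXT gene were taken as those with a peak in the same libraries and the smallest summed difference in log2 fold over them. For HXT8 these were IMA5, through the same peak, and RQC1 on IV (folds 3.98 and 2.91 in swc4Δ, summed difference 0.09 over 2 libraries). For HXT13 they were YEF3 on XII (3.55 and 2.91, summed difference 0.02) and LOS1 on XI (3.66 and 2.94, summed difference 0.05), out of 311 genes outside the set with the same pattern. For HXT17, over 1 library, BMT6 on XII and YNR071C, which shares its peak, had the same fold of 3.51.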

How the data were processed

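ATAC-seq peak lists of 2 swc4Δ and 2 WT libraries were used, with genotype and replicate from the labels. Per the submitters' processing notes, the tools were deepTools 1.5.11, SAMtools 1.4, Picard 2.18.7, Bowtie2 2.3.1 and Trim Galore 0.5.0, on sacCer3. For the peak caller, any Tn5 shift and reads with several matches, nothing is given in the sources used here. The deposited lists give a fold (a ratio over background), a −log10 p and −log10 q, and a score; the genotype lists deposited by the authors give 1 score per region of unstated origin, and their genotype was read from the code shared with the library lists. Folds and scores describe peaks within a list.

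The deposited folds of each library lay on evenly spaced steps (every fold within 0.01 of a whole step), from which pileup and background were recovered, taking fold as (pileup + 1) over (background + 1). A Poisson test on these gave back the deposited −log10 p to within 0.000157. Windows of 1000 bp upstream of start codons came from the RefSeq table of R64, with strand from systematic names; an overlap of 1 bp counted. The 8 genes, gene lists and alternatives were chosen with earlier results of these data known. By rule the text names the 8 genes, their upstream neighbours, gained or lost listed genes, and the genes most alike; other genes were named after their values were seen. DNA and protein sequences were not used here, so the motif and identity comparisons that had been planned were not run. The counting was run on simulated peaks, which were narrower than any listed peak. A planted gained gene also passed if its window held a WT peak, so this run does not check the gained calls. Python 3.11.15, pandas 2.3.3, NumPy 2.4.6, SciPy 1.17.1 and Matplotlib 3.10.9 were used.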

Additional observations from a re-analysis of the deposited data

How the results depend on the processing

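HXT8 and HXT13 were the gained genes at a −log10 q of at least 5, with windows of 500 bp, with windows stopped at the upstream gene, with the summit or at least 50% of the peak required in the window, and with 2115 peaks per list; the share gained over all genes was 3.93% with equal lists and 5.00% to 5.23% under the other 5. Leaving out 1 library gave 2 to 3 gained genes, the third being HXT17 without swc4Δ replicate 2, when 11.4% of all genes were gained. The mean difference in genes with a peak (swc4Δ minus WT) was then 2 to 3, against 2.5, and genes without any peak 5 to 6. Lost genes and genes with a peak in all 4 libraries were 0 under all 10 alternatives. Without WT replicate 1 the share of all genes gained was 9.90%, without WT replicate 2 6.36% and without swc4Δ replicate 1 7.06%. Without a swc4Δ replicate the fold was 2.79 to 3.90 at HXT8 and 2.94 to 3.55 at HXT13. Relative to the median peak of the chromosome the mean fold was 1.34 at HXT8 and 1.23 at HXT13, a change of scale. The labels give a replicate number within each genotype and nothing that pairs a swc4Δ library with a WT library, so no paired analysis was made. Set side by side by replicate number, as a description only, 3 genes in swc4Δ stood against 0 in WT for number 1. For number 2 it was 2 against 0. Depth and peak width both limit what can be read from windows without peaks. The lowest listed pileups were 37 to 40 fragments and the shortest listed peaks 200 bp, and a lower or narrower opening may go unlisted. The pileup in a window without a peak is therefore not known.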

Other observations

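Beyond the upstream windows, some of the blocks of matching arrangement held weak regions of the genotype lists inside coding sequence. A region of the WT list lay 1084 to 1363 bp into HXT9 (score 31), and one of the swc4Δ list lay 1078 to 1497 bp into HXT11 (score 50). Over the dehydrogenase genes beside HXT13 and HXT17, regions of the swc4Δ list lay 3001 to 3290 bp from the HXT13 start codon at DSF1 (score 34) and 3014 to 3313 bp from the HXT17 start codon at MAN2 (score 42). The WT list had a region at MAN2 as well (3074 to 3323 bp, score 33), and none at DSF1. Other places had no counterpart in the matching block. A region of the swc4Δ list lay inside IMA2 beside HXT11 (chromosome XV, 23591 to 23940, score 54), with none inside IMA4 beside HXT9. The regions inside HXT9 and HXT11 came from different genotypes. The stretch from IMA3 to HXT12 and that from MPH2 to THI13 held 0 regions of either list. All of these scores were near the lowest of their list, 30, and none of these places had a peak in any of the 4 libraries.

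Between HXT11 and HPF1, a cell wall gene, a further peak stood in both swc4Δ libraries (chromosome XV, 27824 to 28102, fold 3.07, and 27867 to 28066, fold 2.19) and in neither WT library. The swc4Δ genotype list had a region there with a score of 420. These places were chosen after their values were seen.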
